A study of Mus musculus with 48 samples.

Results

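The comparison described here is between 8 cerebral cortex libraries labelled Q140 Msh3-/- and 8 labelled Q140, taken by genotype from a series of 48 bulk RNA-seq libraries of mouse cortex. Both groups were heterozygous for Q140, a knock-in allele of the Huntington disease gene Htt with an expanded CAG repeat, and differed in the labelled Msh3 genotype, which was homozygous mutant in the libraries labelled Q140 Msh3-/- and not mentioned in the Q140 labels. All mice were C57BL/6, 12 months old, with 4 females and 4 males per genotype. Q140 Msh3+/-, Msh3-/-, Msh3+/- and wild type libraries, 8 of each, completed the series and shared the estimate of spread. The labels give neither the deleted part of Msh3 nor the repeat length of individual mice, and the number of Msh3 founder lines is not stated. The extraction protocol speaks of striatum at 6 months, whereas every other label says cortex at 12 months. Slc17a7, the vesicular glutamate transporter of cortical excitatory neurons, was read at 1284 to 1502 CPM (read counts scaled by the TMM-normalised total of the library) in Q140 Msh3-/- libraries and at 1273 to 1401 CPM in Q140 libraries. Drd1 and Adora2a, dopamine and adenosine receptors of striatal projection neurons, reached no more than 6.94 and 2.19 CPM in Q140 Msh3-/- libraries and 7.90 and 2.4 CPM in Q140 libraries.

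MSH3 is a DNA mismatch repair protein that recognises small insertion and deletion loops. In mouse models of Huntington disease MSH3 is known to be needed for somatic expansion of the CAG repeat, which lengthens with age in neurons.

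Of 19547 genes tested, 20 changed between Q140 Msh3-/- and Q140 cortex at an adjusted p under 0.05, which is 0.102% of those tested, with 7 higher (0.0358%) and 13 lower (0.0665%). The test was edgeR's quasi-likelihood test with Benjamini-Hochberg adjustment over all tested genes. At an unadjusted p under 0.05 there were 1340 genes, 6.86% of those tested. In 12 of the 20 the gene lay on chromosome 13 within 20 Mb of Msh3, and the other 8 lay on other chromosomes. The same fit called 22 genes (0.113%) in Msh3-/- against wild type, in libraries that the Q140 comparison does not use. Total gene counts per library ran from 40083180 to 59054296 in Q140 Msh3-/- and from 45129982 to 55664867 in Q140. Bulk tissue cannot tell fewer cells of a type from less RNA per cell, and the labels do not say that each library is a separate animal, so the p-values measure the spread between these libraries.

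Msh3 itself was read more often, not less, in the libraries labelled as mutant. In Q140 Msh3-/- libraries Msh3 (chr13:92211872-92355003, GRCm38, minus strand) had a lowest value of 83.2, a median of 96.0 and a highest of 109.7 CPM, against 20.8, 21.5 and 23.7 CPM in Q140 libraries. The 2 groups did not overlap. The log2 fold change was 2.13 ± 0.045 (SE, n = 8 each, adjusted p = 2.59e-40), a 4.38-fold higher count. Levels were 21.8 ± 0.98 CPM in Q140, 57.9 ± 3.0 CPM in Q140 Msh3+/- and 95.3 ± 8.0 CPM in Q140 Msh3-/- cortex (SD, n = 8 each). Without Q140 the levels were 99.2 CPM in Msh3-/- and 22.4 CPM in wild type. A count summed over the gene cannot check a deletion whose extent is unknown, so the libraries are called by their label here, and every direction below rests on that label.

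**Figure D1:**
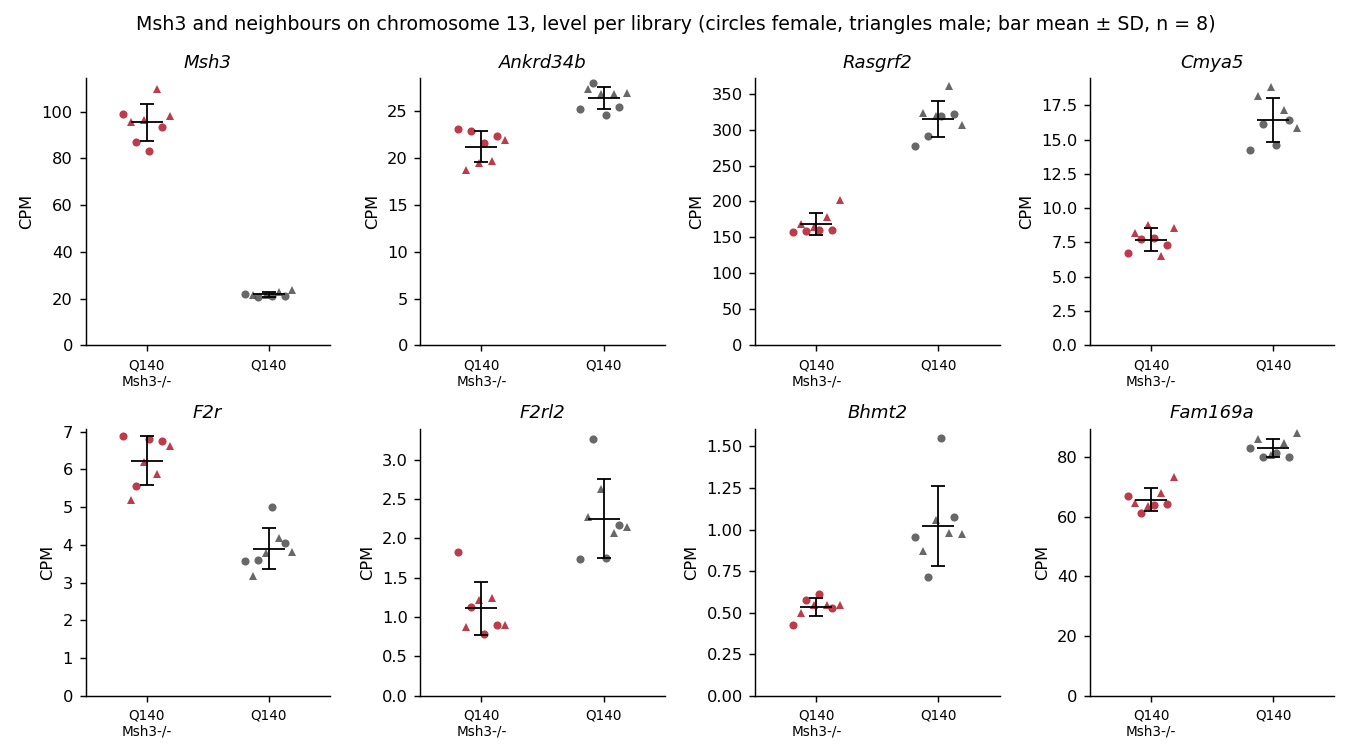
CPM per library of Msh3 and 7 other genes of chromosome 13, with Q140 Msh3-/- left (red) and Q140 right (grey), circles for females, triangles for males and bars for mean ± SD over 8 libraries. Msh3 and F2r are higher and the other 6 are lower in Q140 Msh3-/-. The groups overlap in F2rl2.

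Apart from Rasgrf2 and Msh3 itself, the chromosome 13 calls lay on the distal side of Msh3. On the proximal side 1 of 81 genes within 20 Mb was called, against 10 of 89 from 0 to 10 Mb distal (11.2%) and 0 of 41 from 10 to 20 Mb distal. Beyond 20 Mb on chromosome 13 the count was 0 of 454, and on all other chromosomes 8 of 18872 (0.0424%). Of the 12 window genes 4 were higher and 8 lower. These counts at 0 are of edgeR's adjusted calls, with 2 of the 41 and 26 of the 454 at an unadjusted p under 0.05. By that unadjusted count the proximal side had 13 of 81 (16.05%) and the first 10 Mb distal 20 of 89 (22.47%). Outside the 20 Mb window the share was 6.747%. In Msh3-/- against wild type 2 of the 81 proximal genes were called, so the proximal side was not without change.

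**Figure D2:**
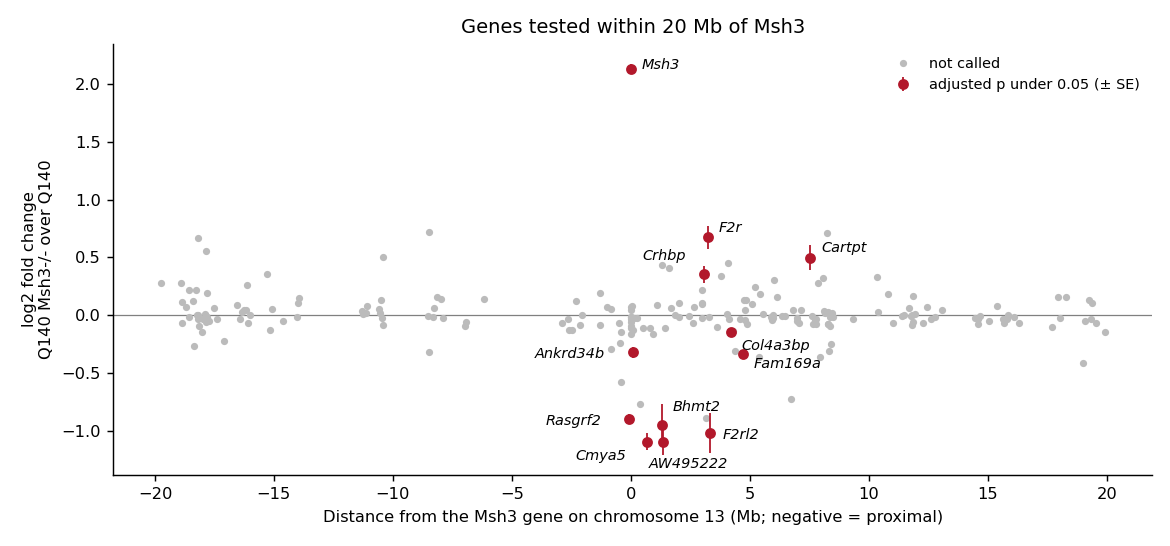
Log2 fold change (Q140 Msh3-/- over Q140) of each tested gene against its distance from Msh3 in Mb, called genes in red with SE and the rest in grey. The red points lie from just proximal of Msh3 to 7.54 Mb distal, and the grey points beyond 10 Mb scatter around 0.

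The most certain change after Msh3 was its neighbour Rasgrf2, a calcium-responsive exchange factor that activates Ras and Rac and marks upper-layer cortical neurons. Rasgrf2 was at 157.3, 162.8 and 201.5 CPM (lowest, median, highest) in Q140 Msh3-/- and at 277.1, 318.8 and 360.7 CPM in Q140 libraries. Every Q140 Msh3-/- library lay below every Q140 library. The log2 fold change was -0.90 ± 0.044 (adjusted p = 2.18e-22). By Msh3 genotype the means were 314.7 CPM in Q140, 241.4 CPM in Q140 Msh3+/- and 168.8 CPM in Q140 Msh3-/- cortex.

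Lower too were Cmya5, which encodes the muscle-associated protein myospryn, Ankrd34b and Fam169a. Cmya5 was at 6.54, 7.78 and 8.80 CPM in Q140 Msh3-/- and 14.2, 16.3 and 18.8 CPM in Q140 libraries, a log2 fold change of -1.09 ± 0.074 (adjusted p = 1.33e-16). Fam169a was at 61.3, 64.5 and 73.4 CPM in Q140 Msh3-/- against 80.0, 82.0 and 88.1 CPM in Q140 libraries, a change of -0.33 ± 0.033 (adjusted p = 2.60e-10). In all 3 genes the groups did not overlap, and Ankrd34b changed by -0.32 ± 0.049 (adjusted p = 7.65e-05). Col4a3bp, the ceramide transfer protein, differed by less: 76.7 ± 3.7 CPM in Q140 Msh3-/- and 84.98 ± 4.3 CPM in Q140 libraries overlapped, with a log2 change of -0.15 ± 0.033 (adjusted p = 0.040), which held in 5 of 16 leave-outs.

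Bhmt2 and its neighbour Dmgdh belong to the homocysteine and betaine pathway, in which Bhmt2 methylates homocysteine and Dmgdh breaks down dimethylglycine. Bhmt2 was at 0.423, 0.548 and 0.613 CPM in Q140 Msh3-/- and 0.712, 0.977 and 1.55 CPM in Q140 libraries (log2 -0.95 ± 0.18, adjusted p = 0.0048), without overlap. AW495222, annotated as an antisense RNA inside Dmgdh, was 2.42 ± 0.26 CPM in Q140 Msh3-/- against 5.18 ± 0.33 CPM in Q140 libraries (log2 -1.10 ± 0.11, adjusted p = 6.25e-10). Dmgdh was 1.22 ± 0.40 CPM in Q140 Msh3-/- against 0.869 ± 0.27 CPM in Q140 libraries and did not pass (log2 0.43 ± 0.19, adjusted p = 0.71). The kit keeps the strand but the sources do not say that it was used in counting. Where AW495222 and Dmgdh overlap, it is therefore not known whether reads were assigned to the right gene. Of the 25 tested genes of homocysteine, betaine and folate metabolism 1, Bhmt2, was lower, beside 0.0665% of all tested genes.

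F2rl1, F2r and F2rl2, which encode receptors of thrombin and related proteases, lie together 3 Mb distal of Msh3. F2rl1 did not pass (log2 -0.89 ± 0.40, adjusted p = 0.71). F2r, which encodes the main thrombin receptor PAR1, was higher, at 5.18, 6.41 and 6.89 CPM in Q140 Msh3-/- and 3.18, 3.79 and 5.01 CPM in Q140 libraries. Every Q140 Msh3-/- library lay above every Q140 library, and the log2 fold change was 0.67 ± 0.098 (adjusted p = 2.92e-05). F2rl2, which encodes the thrombin cofactor receptor PAR3, was lower (1.11 ± 0.34 CPM in Q140 Msh3-/- against 2.25 ± 0.50 CPM in Q140 libraries, log2 -1.02 ± 0.17, adjusted p = 0.00074). The groups overlapped in F2rl2, where Q140 Msh3-/- reached 1.83 CPM and Q140 began at 1.73 CPM. Of 8 tested genes of protease-activated receptors and their ligands and inhibitors, F2r was higher and F2rl2 lower, beside 0.102% of all tested genes called. Both lie near Msh3.

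Crhbp and Cartpt, which encode a binding protein for corticotropin-releasing hormone and the precursor of the CART peptide, were higher, but less certainly. Crhbp was at 18.3 ± 1.1 CPM in Q140 Msh3-/- and 14.3 ± 1.7 CPM in Q140 libraries (log2 0.35 ± 0.075, adjusted p = 0.025), and Cartpt at 5.51 ± 0.49 CPM in Q140 Msh3-/- and 3.91 ± 0.39 CPM in Q140 libraries (log2 0.50 ± 0.11, adjusted p = 0.030). In both genes the groups did not overlap, and the call held in 8 of 16 leave-outs for Crhbp and 7 for Cartpt. Among all 20 called genes 13 had no overlap between the groups of 8, 10 of the 12 near Msh3 and 3 of the 8 elsewhere. Over all 19547 genes tested 18 (0.0921%) had none. The 20 were picked by the test on these same libraries. A lack of overlap was therefore likely in advance and is no separate support.

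Of the 12 genes called near Msh3, 10 were also called in libraries without Q140. The 2 that were not are Crhbp and Cartpt. Crhbp had a log2 change of 0.22 ± 0.075 in Msh3-/- over wild type (adjusted p = 0.31) and Cartpt one of 0.05 ± 0.10 (adjusted p = 0.88). In Msh3-/- against wild type 12 genes were called within 20 Mb of Msh3, all 12 in the same direction as in Q140 Msh3-/- against Q140, and 10 of them were called there too. Called without Q140 but not with it were Vcan, an extracellular matrix proteoglycan, and Dmgdh. Outside the window 10 genes were called in Msh3-/- against wild type, of which 9 had the same direction and 2 were called. The 8 not called in Q140 Msh3-/- against Q140 were Gm38340 and Gm37452, both on chromosome 7, Prl, Insm1, Tbl1x, Wdr44, Tesk2 and C230034O21Rik. Insm1, a zinc finger regulator of neuroendocrine and neuronal precursors, was at 6.35 CPM in Q140 Msh3-/- and 5.30 CPM in Q140 libraries (log2 0.26, adjusted p = 0.69). Gm38340 had a log2 value of -1.80 (adjusted p = 0.079) and Gm37452 one of -0.87. Prl, a pituitary hormone gene, had a median of 0.053 and a highest value of 0.170 CPM in Q140 Msh3-/- libraries. In Q140 libraries its median was 0 and its highest value 1.90 CPM, and in wild type libraries 0.528 and 34.0 CPM. The other 4 lay between -0.05 and 0.11. Counted over the whole genome the shared calls were 12, which is 54.5% of the calls there and 60.0% of those here. For Msh3 the log2 change was 2.15 ± 0.045 in Msh3-/- over wild type, and for Rasgrf2 -0.92 ± 0.044.

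**Figure D3:**
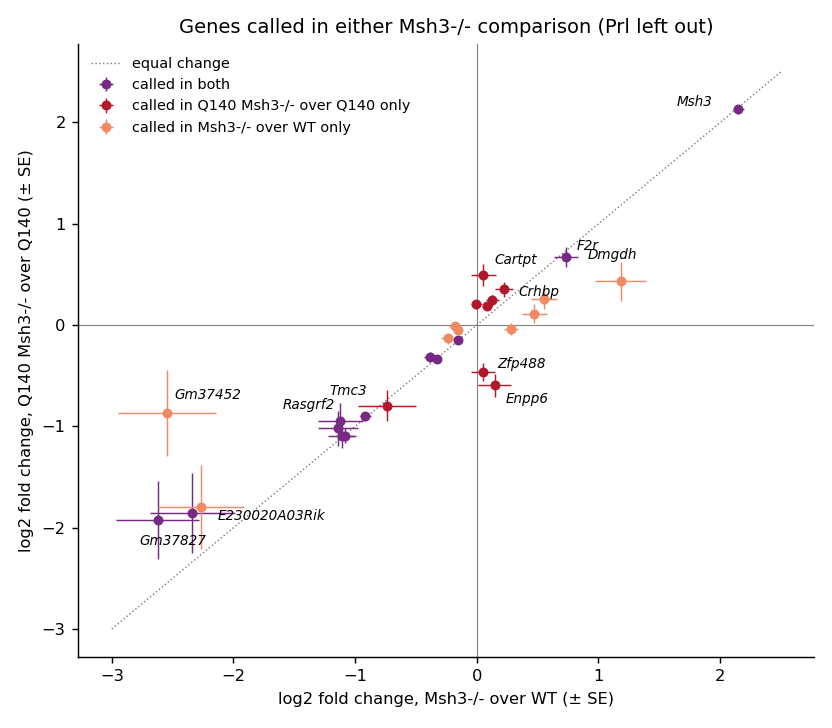
Log2 fold change (± SE) in Q140 Msh3-/- over Q140 (vertical) against that in Msh3-/- over wild type (horizontal) for genes called in either, Prl left out. Msh3, F2r and Rasgrf2 lie on the line of equal change, while Enpp6, Zfp488, Cartpt and Ramp1 lie near 0 in the animals without Q140.

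The 8 genes called on other chromosomes included 2 markers of the oligodendrocyte lineage, both lower. Enpp6, a choline phosphodiesterase that marks newly forming oligodendrocytes, was at 2.07, 2.57 and 3.48 CPM in Q140 Msh3-/- and 3.49, 3.92 and 4.43 CPM in Q140 libraries (log2 -0.59 ± 0.11, adjusted p = 0.0059). Zfp488, a zinc finger regulator that acts with Olig2 in oligodendrocyte development, was at 1.70, 2.17 and 2.44 CPM in Q140 Msh3-/- against 2.67, 2.98 and 3.21 CPM in Q140 libraries (log2 -0.46 ± 0.090, adjusted p = 0.0078). Neither gene's groups overlapped. Enpp6 averaged 2.22 CPM in Msh3-/- and 2.003 CPM in wild type cortex, and Zfp488 averaged 2.22 CPM in Msh3-/- and 2.11 CPM in wild type cortex. Both calls held when any of the 16 libraries was left out. Both were lost with the plate row as a term and without the libraries high in choroid plexus or blood genes. They were also lost in females alone and in males alone, and Zfp488 with only the 16 libraries of the comparison. Over 16 alternatives Enpp6 was called in 12 and Zfp488 in 11. Of 21 tested markers of oligodendrocyte precursors and newly forming oligodendrocytes these 2 were called, beside 0.102% of all tested genes. The other 19 did not pass, and the list median was -0.02 beside 0.0026 over all tested genes.

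The promoters of the 2 lineage genes, from 250 bases before to 50 after the annotated start, are shown as RefSeq (GRCm38.p6) gives them, since both genes were lower in Q140 Msh3-/-. Among the 8 Q140 Msh3-/- libraries, M4 was the highest in Enpp6 and the lowest in Zfp488. Enpp6 covers chr8:46986637-46986936 on the plus strand and Zfp488 chr14:33978715-33979014 on the minus strand. Capitals mark the SOX core ACAATG and the E-box CAGCTG on either strand. ACAATG stood at -219 in Enpp6 and CAGCTG at 8 in Zfp488. They occurred in 12.6% and 16.3% of the 32851 RefSeq promoter windows of this length, and neither motif was in both windows.
Enpp6: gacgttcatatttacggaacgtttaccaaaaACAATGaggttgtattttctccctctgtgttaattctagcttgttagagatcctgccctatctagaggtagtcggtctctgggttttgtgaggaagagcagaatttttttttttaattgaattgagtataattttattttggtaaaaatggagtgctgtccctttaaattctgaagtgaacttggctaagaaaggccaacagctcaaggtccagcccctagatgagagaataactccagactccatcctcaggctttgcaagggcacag
Zfp488: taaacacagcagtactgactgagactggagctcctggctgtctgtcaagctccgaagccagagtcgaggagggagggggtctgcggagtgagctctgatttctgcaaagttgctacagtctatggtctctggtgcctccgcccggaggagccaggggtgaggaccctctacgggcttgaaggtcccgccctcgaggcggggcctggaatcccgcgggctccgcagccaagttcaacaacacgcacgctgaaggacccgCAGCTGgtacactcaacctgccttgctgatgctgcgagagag

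Tmc3, a transmembrane channel-like gene, was lower, at 0.428, 0.780 and 1.08 CPM in Q140 Msh3-/- and 1.06, 1.35 and 1.603 CPM in Q140 libraries. The groups overlapped at their edges (log2 -0.80 ± 0.16, adjusted p = 0.0081). Its level was 0.323 CPM in Msh3-/- and 0.512 CPM in wild type cortex. Gm37827 and E230020A03Rik, neighbouring unnamed transcripts on chromosome 7, were also lower. Gm37827 was at 0.209 CPM in Q140 Msh3-/- and 0.829 CPM in Q140 libraries (log2 -1.93 ± 0.39, adjusted p = 0.014). E230020A03Rik was at 0.491 CPM in Q140 Msh3-/- and 1.802 CPM in Q140 libraries (log2 -1.86 ± 0.39, adjusted p = 0.030). In both the groups overlapped. Those transcripts were lower in Msh3-/- than in wild type as well, with log2 fold changes of -2.62 and -2.34. Over 16 alternatives Tmc3 was called in 10, Gm37827 in 10 and E230020A03Rik in 7. With each of the 16 libraries left out in turn the call held in 16 for Tmc3, 12 for Gm37827 and 9 for E230020A03Rik.

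The 3 genes called higher elsewhere changed by little. Plxnd1, the semaphorin 3E receptor, was at 202.7 ± 11.5 CPM in Q140 Msh3-/- and 178.2 ± 10.8 CPM in Q140 libraries (log2 0.19 ± 0.040, adjusted p = 0.030). Ramp1, a partner of the CGRP receptor, was at 47.0 ± 3.0 CPM in Q140 Msh3-/- and 40.8 ± 3.3 CPM in Q140 libraries (log2 0.20 ± 0.046, adjusted p = 0.040). Armc2, known for its role in the sperm flagellum, was at 12.5 ± 0.70 CPM in Q140 Msh3-/- and 10.6 ± 0.83 CPM in Q140 libraries (log2 0.24 ± 0.054, adjusted p = 0.040). With each of the 16 libraries left out in turn the call held in 7 for Plxnd1, 4 for Ramp1 and 5 for Armc2. Armc2 showed no overlap, and the other 2 did. Just outside the threshold lay the GABA-A receptor subunits Gabra5 (log2 -0.29, adjusted p = 0.051) and Gabrd (log2 0.19, adjusted p = 0.055). With the plate row of the well address as an added term, 10 of the 20 calls remained, all near Msh3, and 0 of the 8 elsewhere (Enpp6 log2 -0.55, adjusted p = 0.088). With the plate column 13 genes elsewhere were called. Rows were unevenly shared between the genotypes.

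**Figure D4:**
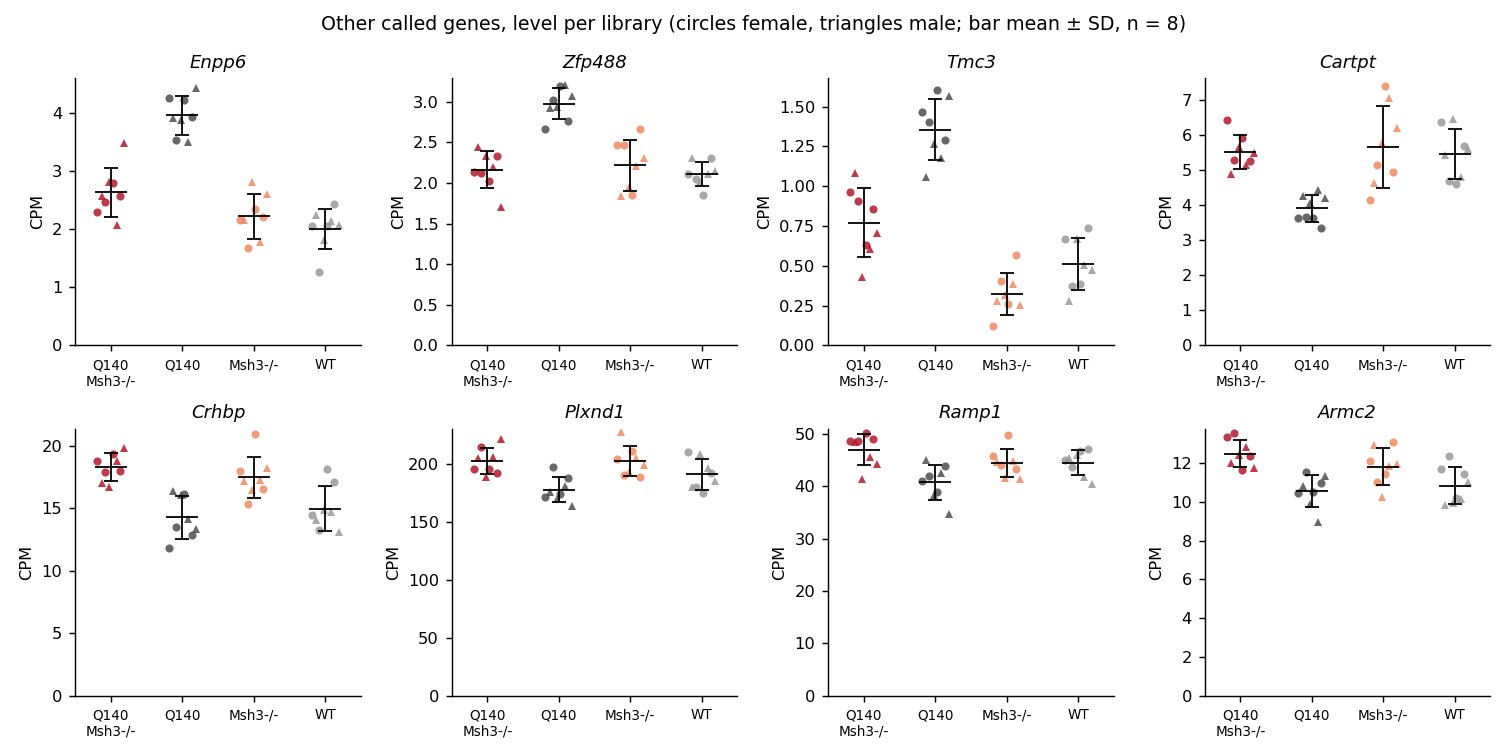
CPM per library (circles females, triangles males, bars mean ± SD, n = 8) of 8 called genes in Q140 Msh3-/-, Q140, Msh3-/- and wild type cortex, from left to right. In Enpp6 and Zfp488 the Q140 libraries stand above the other 3 genotypes drawn, whereas Cartpt is lowest in Q140. The genes were picked by a test on these Q140 libraries, so an extreme place of Q140 was likely in advance. Q140 Msh3+/- libraries are not drawn.

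Enpp6 and Tmc3 were also called in a comparison of other libraries from the same fit. In Q140 Msh3+/- against Msh3+/-, 10 genes were called (0.0512%), among them Enpp6 at 3.44 ± 0.73 CPM in Q140 Msh3+/- against 2.10 ± 0.54 CPM in Msh3+/- cortex (log2 0.73 ± 0.12, adjusted p = 0.00087) and Tmc3 at 1.2 ± 0.096 CPM in Q140 Msh3+/- against 0.467 ± 0.20 CPM in Msh3+/- cortex (log2 1.36 ± 0.19, adjusted p = 6.29e-06). In 9 of those 10 the sign in Q140 Msh3-/- against Q140 was the opposite, and only Enpp6 and Tmc3 were called there, 20% of the 10 and 10% of the 20. Of the rest, Anln, which encodes the actin-binding scaffold anillin, was at 17.0 ± 1.5 CPM in Q140 Msh3-/- and 21.9 ± 3.5 CPM in Q140 cortex (log2 -0.37, adjusted p = 0.19). Abhd1, Atraid, Cgref1, Mrpl33 and Gm2420, on chromosome 5 like Htt, had log2 values from -0.02 to 0.14 here. Ddit4l was at 0.22 (adjusted p = 0.71) and Slc1a2, the main astrocyte glutamate transporter, at 0.01 (adjusted p = 0.96). The count of 9 opposite signs thus includes values near 0 and genes that share chromosome 5. The share of opposite signs over all tested genes was not taken, so the count shows no general reversal. The test of the difference between the Msh3 effect with and without Q140 called no gene in edgeR (626 at an unadjusted p under 0.05, smallest adjusted p 0.77), in DESeq2 (562) or in limma voom (607). Unadjusted p for that difference was 1.03e-04 for Enpp6, 2.91e-04 for Zfp488, 0.0022 for Ramp1 and 0.0041 for Cartpt. Those genes were picked from the calls of Q140 Msh3-/- against Q140, which is part of that difference. Small unadjusted values were therefore likely in advance and cannot show that the effect differs with Q140.

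Among 27 mismatch repair and repeat-expansion genes only Msh3 was called. Htt was at 251.2 ± 12.2 CPM in Q140 Msh3-/- and 242.1 ± 12.1 CPM in Q140 libraries (log2 0.05 ± 0.036, adjusted p = 0.79). None of 24 huntingtin-binding genes passed.

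Nnt, the mitochondrial transhydrogenase gene that differs between C57BL/6 substrains, lies 27.0 Mb from Msh3. It was at 19.9, 35.6 and 43.3 CPM in Q140 Msh3-/- and 18.02, 20.3 and 32.1 CPM in Q140 libraries (log2 0.54 ± 0.13, adjusted p = 0.11). The 8 Q140 Msh3-/- libraries, from low to high, were at 19.9, 28.8, 29.2, 31.2, 40.0, 41.4, 41.7 and 43.3 CPM, and the Q140 libraries at 18.02, 18.3, 19.4, 20.2, 20.4, 30.8, 31.1 and 32.1 CPM. The groups overlapped, and within each the values were spread in steps and not evenly. What Nnt genotype each mouse carried is not given.

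Most neuronal gene lists held no call. The 23 neuropeptide and activity-regulated secreted genes held 1, Cartpt, which was higher, beside 0.102% of all tested genes. In that list 17 were below 0 and 6 above (median log2 -0.06). Of 21 layer 5 genes 19 were below 0 (list median log2 -0.11) and of 17 layer 6 genes 15 were (median -0.13), beside a median of 0.0026 over all tested genes, and none passed the test. In Msh3-/- against wild type, without Q140, the list medians were -0.11 for layer 5 and -0.088 for layer 6. Within the layer 5 list Ldb2, a LIM-domain binding cofactor, was at 25.6 ± 3.6 CPM in Q140 Msh3-/- and 32.5 ± 5.5 CPM in Q140 libraries (adjusted p = 0.42). The 19 upper-layer genes, median 0.05, held 2 calls, Rasgrf2 lower and Plxnd1 higher, beside 0.102% of all tested genes, and Rasgrf2 is a neighbour of Msh3. No gene of the 27 interneuron, 38 glutamate postsynaptic, 38 channel or 33 synaptic vesicle genes passed. Of 17 CaMKII subunits, inhibitors and calmodulins 16 were above 0, with Camk2n1, an inhibitor of CaMKII, at 2153 ± 145 CPM in Q140 Msh3-/- and 1941 ± 120 CPM in Q140 libraries (log2 0.15 ± 0.039, adjusted p = 0.22). Immediate early genes had a median of -0.0049 in all libraries, 0.24 in females and -0.28 in males, with none of 25 called.

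Other glial and non-neuronal lists held no call either. No gene of 28 oligodendrocyte, 25 astrocyte, 26 microglia or 25 vascular genes passed, and 21 of 26 microglial genes and 19 of 25 astrocyte genes were above 0. The 17 meningeal genes had a median of -0.27, with 15 below 0 and a summed level of 141.8 to 634.2 CPM in Q140 Msh3-/- and 354.6 to 757.2 CPM in Q140 libraries, with none passing. The 13 mitochondrially encoded genes had a median of -0.09. In Msh3-/- against wild type the list medians were -0.19 for meningeal and -0.19 for mitochondrially encoded genes. Blood genes summed to 0.359 to 12.6 CPM in Q140 Msh3-/- and 0.326 to 8.55 CPM in Q140 libraries; their part in the results was not tested beyond leaving out libraries. In 13 libraries of the series summed choroid plexus, pituitary or blood genes exceeded 4 times the median, 4 of them in this comparison. Without those 13 libraries 9 genes were called, of which 1 lay elsewhere than near Msh3. The 4 libraries exceeded it in blood genes alone, at 7.57 to 12.6 CPM. Pituitary genes summed to 401 to 542 CPM over the series, nearly all of it Chgb (400 to 541 CPM), and set no library apart. The sum therefore did not check pituitary carry-over. Prl alone reached 34.0 CPM in wild type library M2 and 11.34 CPM in Msh3+/- library M1, which were not left out. In the libraries of this comparison Prl reached at most 1.90 CPM. Heat shock, interferon, p53 and oxidative phosphorylation genes held no call in 27, 25, 28 and 54 genes. The 32 cholesterol genes held Col4a3bp alone, beside 0.102% of all tested genes, and Col4a3bp lies 4.19 Mb from Msh3.

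**Figure D5:**
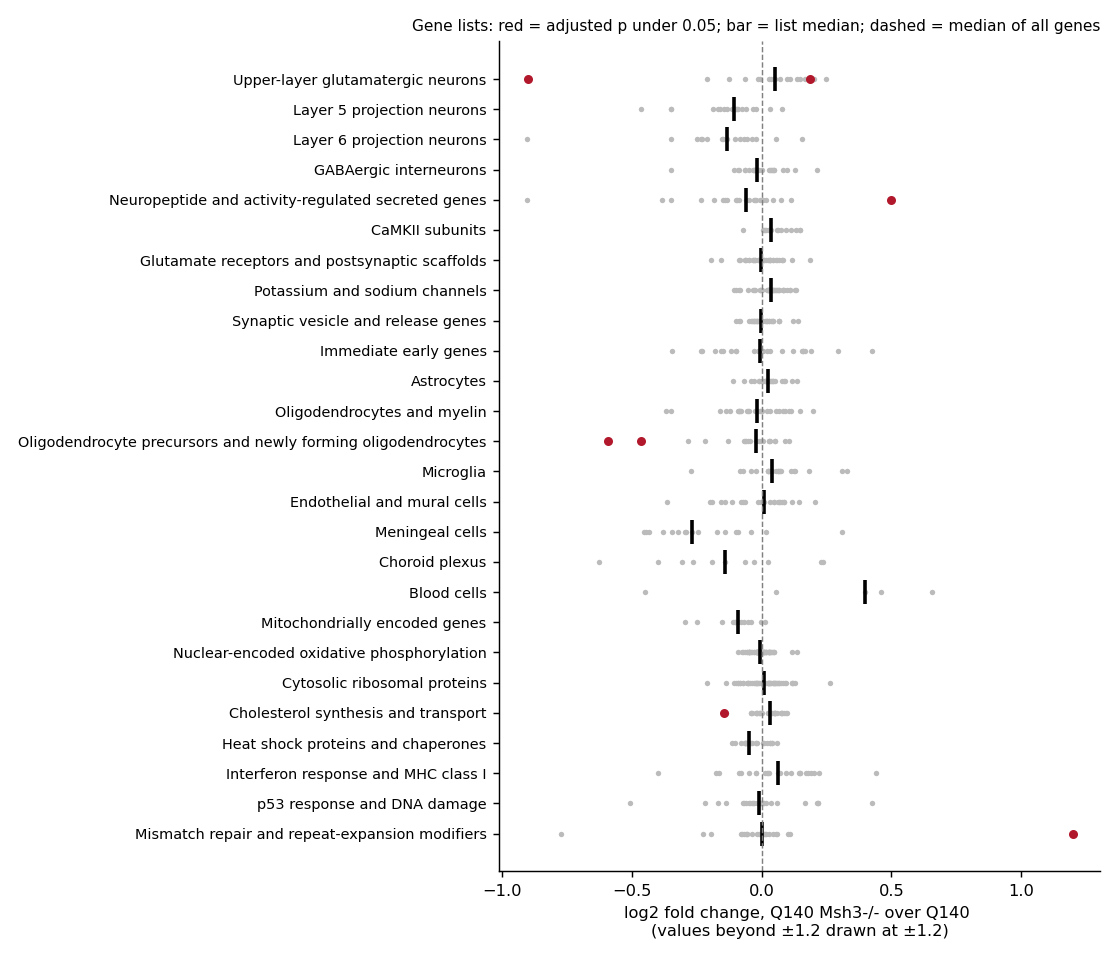
Log2 fold change (Q140 Msh3-/- over Q140) of each member of 26 gene lists (points, red when called), with the list median as a black bar and the median of all tested genes dashed. Layer 5, layer 6 and meningeal medians lie left of the dashed line, and the red points are single genes and not lists.

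Females and males were also compared apart. All 20 called genes had the same sign in females and in males, with 4 libraries per genotype and sex. The genes were picked by the test on these same libraries, both sexes together. A shared sign was therefore likely in advance and is no separate support. The term for a difference between the sexes called none of 18384 genes (1075 at an unadjusted p under 0.05, smallest adjusted p 0.84). Females alone gave 5 calls and males alone 7, all of them near Msh3.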

How the data were processed

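Mouse cortex RNA was sequenced in 48 stranded TruSeq libraries, per the labels' protocols. The deposited table holds whole-number read counts per gene that the authors made; per the submitters' processing notes STAR 2.7.5c, SAMtools 1.10 and HTSeq 0.12.3 were used with GRCm38 (mm10), with no role or order, and the annotation release and strand setting are not given in the sources used here. A deposited FPKM table was not used. Of 48795 genes, 14658 had no read. Coordinates came from GENCODE M21, matched for 48435 IDs.

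Here edgeR's quasi-likelihood test (edgeR 4.0.16) was run on the counts with TMM scaling and filterByExpr (minimum count 10, total 15), with genotype and sex as terms over all 48 libraries, and adjusted by Benjamini-Hochberg; SE is the log2 fold change over the square root of F. CPM use TMM-scaled totals. The script was tested on simulated counts. Libraries were grouped by genotype label; no 2 libraries of a group were alike within counting error. Replicate numbers do not pair the libraries (correlations -0.12 to 0.070 over 8 numbers). Named genes were all called genes within 20 Mb of Msh3, the called genes elsewhere, Msh3, Htt and Nnt, the calls of the 2 other comparisons, and the called members of 35 gene lists; lists without a call are given mostly by their counts and median, without the lowest-p members that the rule also named. Some genes under the rule are not reported here. The members and lists were chosen with earlier results of these data known. Alternatives covered DESeq2, limma voom, other scalings and filters, plate terms and libraries left out.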

Additional observations from a re-analysis of the deposited data

Results flagged for a closer look

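In 3 of 40 groups examined 1 library stood apart from the other 7 by Dixon's criterion, for which chance alone gives about 1 in 20. Rasgrf2 was at 201.5 CPM in library M4 of Q140 Msh3-/-, against 157.3 to 177.8 CPM in the other 7. F2rl2 was at 1.828 CPM in library F1 of Q140 Msh3-/-, against 0.783 to 1.24 CPM in the other 7. Bhmt2 was at 1.55 CPM in library F3 of Q140, against 0.712 to 1.07 CPM in the other 7. Without the library concerned each of these genes was still called, in the same direction.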

How the results depend on the processing

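Msh3, Rasgrf2, Cmya5, Fam169a and AW495222 were called in all 16 alternatives and in all 16 fits that left out 1 library, and no named change turned its direction in any of them. The count of 20 calls (7 higher, 13 lower, 8 outside 20 Mb of Msh3) moved as follows. With only the 16 libraries of the comparison it was 12 (4 higher, 8 lower, 1 outside). DESeq2 gave 12 higher and 16 outside, and 22 calls in place of 10 in Q140 Msh3+/- against Msh3+/-. Without the sex term 5 were outside, and with the plate column 13. With the plate row there were 10 calls (2 higher, 8 lower, 0 outside). Without the libraries high in choroid plexus or blood genes there were 9 (3 higher, 6 lower, 1 outside). Females alone gave 5 (1 higher, 4 lower, 0 outside) and males alone 7 (1 higher, 6 lower, 0 outside). Leaving out 1 library gave 13 to 24 calls, 2 to 10 higher, 10 to 15 lower and 3 to 12 outside. The count outside was 3 without Q140 Msh3-/- F2 or Q140 F3, 4 without Q140 Msh3-/- F1 or M4, and 5 without Q140 Msh3-/- M3 or Q140 F1, F2 or M2; the total was 13 without Q140 Msh3-/- M4. The replicate block gave 24 calls, all 20 among them, and 17 in Q140 Msh3+/- against Msh3+/-; same-numbered libraries did not deviate together. The earlier quasi-likelihood method of edgeR, chosen after seeing the data, gave 18. The cause of these moves was not tested, beyond the fewer libraries in some. Depth limits the low genes: E230020A03Rik and Gm37827 went down to 8 and 2 counts in a library.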
